A study of Homo sapiens with 10 samples.

Results

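The late response of HeyA8 cells to siGGGGGC was taken from 4 of the 10 libraries of the series, chosen by their labels alone. These were the 2 libraries of cells transfected with siGGGGGC, which the titles call siMxy, and 2 libraries of control cells. The control cells were transfected with the non-targeting duplex siNT1, which the titles call siNT1 S2'OM. In the study's methods the sense strands of both duplexes begin with the same modified bases, written mUmG. Both siRNAs were used at 10 nM, and RNA was taken 48 h after transfection. HeyA8 is an established human ovarian cancer cell line. A replicate was a well of a reverse transfection, so the spread between replicates is that of wells and libraries of 1 line and not of independent lines. The other libraries came from the same line and the same dose, with siNT1 or siGGGGGC at 24 h and with siGGCAGU, a duplex with the seed of miR-34a-5p, at 48 h. They shared the estimate of the spread and served for the comparisons with 24 h and with siGGCAGU.

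A guide strand loaded into an Argonaute protein finds messenger RNAs through its seed, the bases near its 5′ end, and a match in the 3′ untranslated region (3′ UTR) usually lowers the messenger. The siRNAs of the study carry different 6mer seeds in a shared backbone, so each should act on many messengers at once, as a microRNA does. Loss of several genes that a cell needs can lead over days to stress signalling, arrest and death, and the question asked of the late libraries was which genes and pathways had moved by then.

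The seed of siGGGGGC is GGGGGC at positions 2 to 7 of the guide, and its seed match in a messenger is GCCCCC. In RefSeq, 2 mature human microRNAs carry the same bases at positions 2 to 7, and they are shown because they are the natural sequences with this seed. Both lie on the plus strand of chromosome 11 (GRCh38.p14), hsa-miR-4488 at 61508599 to 61508616 and hsa-miR-1237-5p at 64368651 to 64368671. Capitals mark the seed, bases 2 to 8, which was identical in both.
hsa-miR-4488: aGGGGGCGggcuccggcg
hsa-miR-1237-5p: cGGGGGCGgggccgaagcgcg

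Seed matches in genes with large falls at 48 h are printed next, read 5′ to 3′ in the direction of the transcript, with GCCCCC in capitals and the flanking bases of the longest annotated 3′ UTR in lower case. Positions are those of the 6 matching bases in hg38, with 3′ UTRs from GENCODE 44. EIF5A held 5 copies, TGM2 and CENPB 4 each, PES1 3, AXL, NIPAL3 and PODXL 2 each and APEX1 1. The log2 fold changes at 48 h of these genes with copies ran from -4.39 for TGM2 to -2.27 for CENPB. HAS2 (-4.55), TNC (-3.72), FN1 (-3.72), H2BC10 (-2.78) and H2BC9 (-2.62) were among the 10 largest falls of abundant genes and held 0. The study had required a match when it picked EIF5A, TGM2, CENPB, PES1 and APEX1 as targets.
EIF5A (chr17:7312366-7312371, plus strand): tgggagggccctGCCCCCatgggctttacc
EIF5A (chr17:7312336-7312341, plus strand): gggaggggacctGCCCCCtcctcaggcatc
TGM2 (chr20:38130186-38130191, minus strand): agcctgctgagaGCCCCCaccttgatccca
TGM2 (chr20:38128841-38128846, minus strand): tgcagggctaagGCCCCCaaacatagcccc
PES1 (chr22:30576749-30576754, minus strand): cccctacctactGCCCCCattcatcctggc
CENPB (chr20:3784660-3784665, minus strand): ggacctagctgtGCCCCCaacctagattgg
APEX1 (chr14:20457544-20457549, plus strand): cctgggaaataaGCCCCCtcaactaccatt
AXL (chr19:41261671-41261676, plus strand): tcgggccatgttGCCCCCgtgagccaatcc
NIPAL3 (chr1:24470045-24470050, plus strand): ctgcataccagtGCCCCCtggaaagatggg
PODXL (chr7:131501080-131501085, minus strand): aaatgcaaccctGCCCCCtccccagcaaag

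The counts assigned to genes came to 28034736 and 42428986 with siNT1 and to 23696441 and 24049241 with siGGGGGC. Abundant structural RNAs such as RN7SL2 and SNORD3A took 20.69% and 24.88% of the counts with siNT1 and 29.02% and 24.75% with siGGGGGC. The cells had the markers of the line, with VIM at 37296 and 39331 normalised counts with siNT1, KRT8 at 6582 and 5679 and PAX8, a transcription factor of ovarian carcinoma, at 674 and 654, while EPCAM lay between 24.6 and 35.2 and CDH1 and MUC16 were near 0. The 11 markers of leukocytes, endothelial cells, erythroid cells and hepatocytes were at or near 0 in all 4 libraries, with CDH5 the highest at 16.3 and 16 with siNT1 and 5.59 and 14.5 with siGGGGGC. Values are counts scaled by TMM library size and are relative to the other RNAs of the library, so that less RNA per cell, or a loss of some of the cells, cannot be told apart from lower expression in the cells that remained.

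The quasi-likelihood test of edgeR, with p-values adjusted by Benjamini and Hochberg over 16905 genes, put 9345 genes below 0.05, 4702 of them higher and 4643 lower with siGGGGGC. Every adjusted p given here for a gene comes from this test. A gene is called here when it was also beyond a log2 fold change of 1. This left 1768 genes called higher (10.5% of the genes tested) and 1868 called lower (11.0%). List counts of called genes below are to be read against these shares. List counts by adjusted p alone are to be read against the 4702 higher and 4643 lower of all 16905 genes. Beyond a log2 fold change of 2 there were 427 genes higher and 396 lower, and beyond 3 there were 140 and 73. The median log2 fold change over all genes was -0.01, with 5th and 95th percentiles of -1.55 and 1.50. The genes called higher grew from 4.08% and 4.1% of the counts outside structural RNA with siNT1 to 10.9% and 11% with siGGGGGC, and the genes called lower shrank from 8.88% and 8.3% to 2.81% and 2.82%, although these genes were chosen by this contrast. In the sentences that follow, a pair of numbers gives the normalised counts of replicates 1 and 2, first with siNT1 and then with siGGGGGC, and a single signed number beside a gene is its log2 fold change of siGGGGGC over siNT1 at 48 h.

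**Figure D1:**
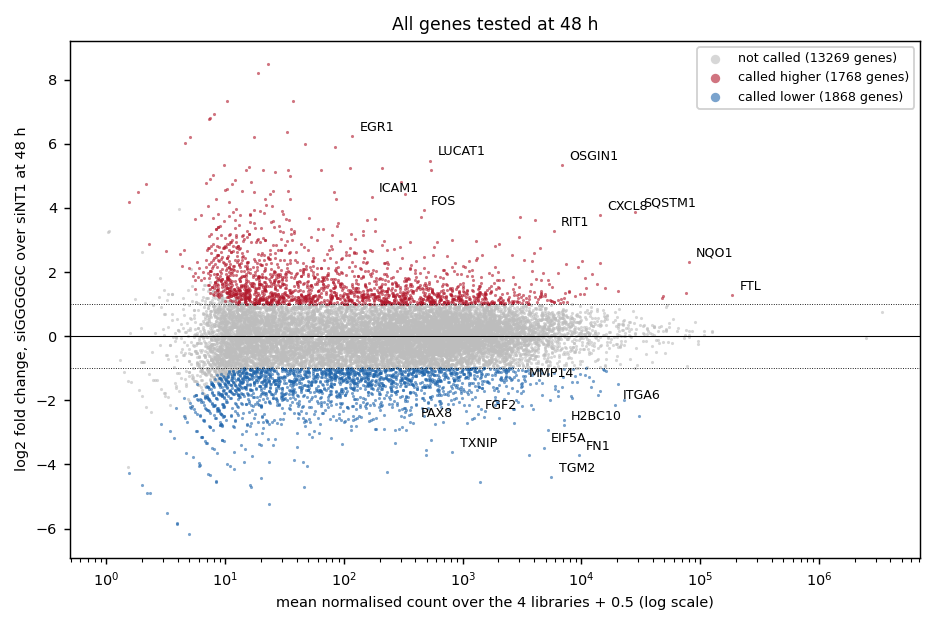
Log2 fold change of siGGGGGC over siNT1 at 48 h (vertical axis) against the mean normalised count over the 4 libraries plus 0.5 (horizontal axis, log scale) for the 16905 genes tested, with dotted lines at a log2 fold change of 1 either way. Red points are the 1768 genes called higher, blue points the 1868 called lower and grey points the rest, and abundant genes such as SQSTM1, NQO1, FN1 and ITGA6 lie outside the dotted lines.

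Among genes with a mean normalised count of at least 1000, the 10 largest rises ran from OSGIN1 at 5.32 to NMRAL2P at 2.81, and the 10 largest falls from HAS2 at -4.55 to H2BC9 at -2.62. RIT1 (ENSG00000143622, hg38 chromosome 1, 155897808 to 155911404, minus strand), a small GTPase of the RAS family, was at 1018.5 and 1175 normalised counts with siNT1 and at 10650 and 10652 with siGGGGGC (log2 fold change 3.28 ± 0.0979 SE, adjusted p = 3.6e-12). PTX3 (ENSG00000163661, hg38 chromosome 3, 157436850 to 157443633, plus strand), a secreted pentraxin of innate immunity, went from 561 and 679 to 5698 and 5014 (log2 fold change 3.11 ± 0.113 SE, adjusted p = 1.91e-11). Neither gene had overlapping groups, and the replicates within a group lay close together beside the distance between groups. ANKRD46, an ankyrin repeat protein, went from 301 and 279 to 2289 and 2279 (2.98, adjusted p = 2.3e-11). TNFSF9, the 4-1BB ligand, rose by 2.87 (437 and 532 to 3785 and 3308.5, adjusted p = 5.67e-11), and the pseudogene NMRAL2P by 2.81 (439 and 488 to 3353 and 3175, adjusted p = 3.84e-11).

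The falls outside the genes the study had named as targets included a receptor, a sialomucin and histone genes. AXL (ENSG00000167601, hg38 chromosome 19, 41219223 to 41261766, plus strand), the receptor tyrosine kinase for GAS6, went from 9632.5 and 8828 normalised counts with siNT1 to 1146 and 1293 with siGGGGGC (log2 fold change -2.92 ± 0.114 SE, adjusted p = 3.71e-11). PODXL (ENSG00000128567, hg38 chromosome 7, 131500262 to 131558217, minus strand), the sialomucin podocalyxin, had siNT1 replicates that differed, 5891 and 3581, and 703 and 745 with siGGGGGC (log2 fold change -2.71 ± 0.175 SE, adjusted p = 6.53e-09). Even the lower siNT1 library of PODXL was far above both siGGGGGC libraries. NIPAL3 fell by 2.71 on the log2 scale, from 1906 and 1889 to 288 and 291 (adjusted p = 1.91e-11). TXNIP, an arrestin family protein that binds thioredoxin, was below the abundance limit of that ranking and went from 1449.9 and 1574 to 118 and 128, a log2 fold change of -3.61 (adjusted p = 1.14e-11). ARRDC3, an alpha-arrestin of the same family, moved the other way, from 553 and 659 to 7408 and 7569.6, and these were the only members of the 6 arrestin family genes tested that were called.

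All 10 genes that the study had picked as targets of siGGGGGC were called lower at 48 h, with log2 fold changes from -4.39 for TGM2 to -1.56 for POLR2K and a median of -2.20. The study chose them on the 24 h libraries of the same siRNA, among abundant genes with a GCCCCC in the 3′ UTR. Their direction at 24 h and their seed matches are thus not independent evidence. The 48 h libraries did not enter that choice. The fall at 48 h was larger than at 24 h by more than 1 on the log2 scale in 4 of them by the interaction term, with TGM2 at -1.66 and -4.39, EIF5A at -2.09 and -3.48, APEX1 at -1.38 and -2.59 and CENPB at -1.23 and -2.27 at 24 h and 48 h. The control changed as well. Mean siNT1 counts went from 6226 at 24 h to 10669 at 48 h for TGM2 and from 5468 to 8867 for EIF5A. They went the other way for APEX1 (2399 to 2048) and CENPB (2702 to 2369). With siGGGGGC, TGM2 went from 1966 to 508 and EIF5A from 1285.5 to 796. In POLR2K (-1.83 and -1.56) and RHOC (-1.78 and -1.78) the values at the 2 times lay close together. The study also used 5 control genes, which it had picked as unchanged at 24 h, and their log2 fold changes at that time were 0.0022 to 0.0028. At 48 h none of the 5 was called, and 4 had an adjusted p below 0.05. VAMP3, a vesicle SNARE, rose by 0.76 (1824 and 2054 to 3302 and 3249, adjusted p = 7.41e-06), TPP2, RFC3 and UMPS were at -0.36, -0.25 and -0.22, and PPIL1 was at 0.02 (adjusted p = 0.902).

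The plot of 24 gene lists gives the members of the pathways described next. The lists were chosen with earlier results of these data known, so each is given by counts and by its median beside the median of -0.01 over all genes, with no test of the list. Called members named beyond the 3 largest abundant ones and the landmark genes of a list were picked after their values were seen.

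**Figure D2:**
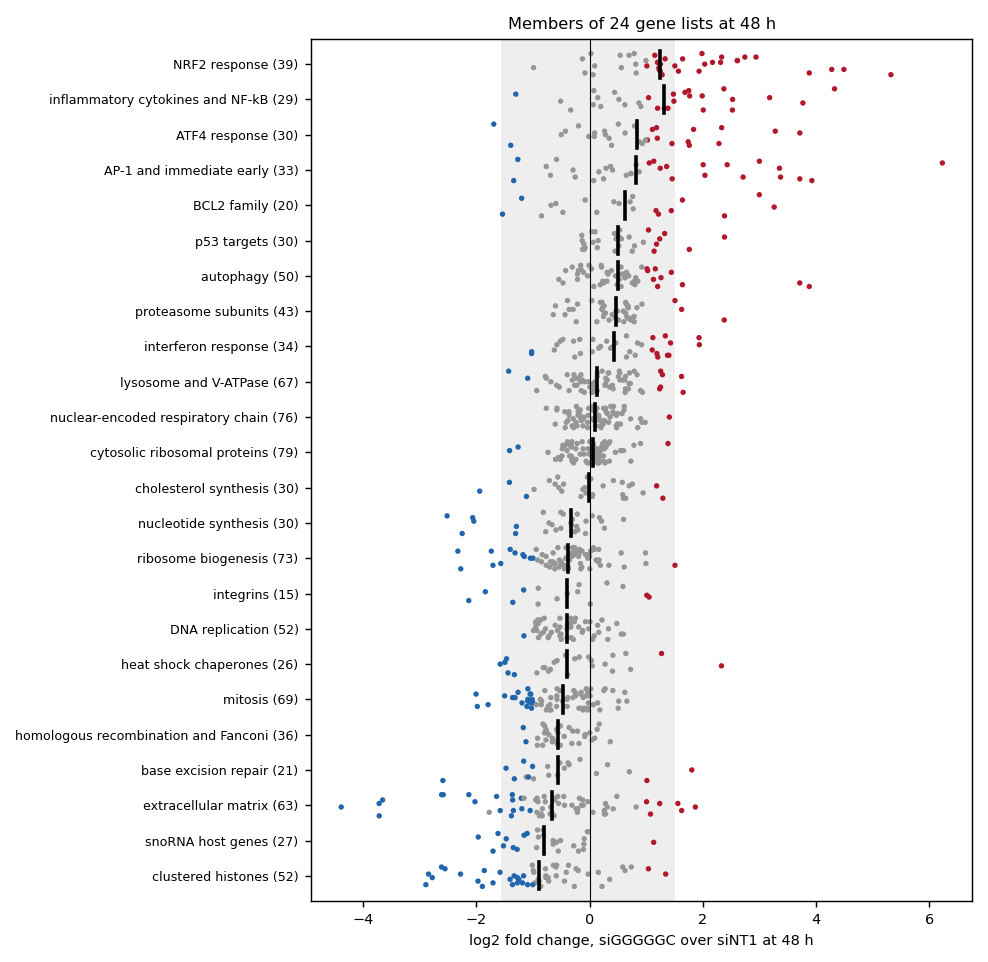
Log2 fold change of siGGGGGC over siNT1 at 48 h for the tested members (points, number in brackets) of 24 gene lists, red where called higher, blue where called lower and grey where not called. Black bars are list medians and the grey band spans the 5th to 95th percentile of all genes (-1.55 to 1.50), and the NRF2 and inflammatory lists have medians of 1.25 and 1.32 while the clustered histones have -0.90.

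Most genes of the NRF2 response rose. NRF2 is the transcription factor that turns on glutathione, thioredoxin and detoxification genes under oxidative or electrophilic stress, through antioxidant response elements. Of 39 members tested, 26 were called higher and 0 lower, with a median of 1.25. NQO1 (ENSG00000181019, hg38 chromosome 16, 69706996 to 69726668, minus strand), a quinone reductase, went from 25700 and 28098 normalised counts with siNT1 to 130802 and 136777 with siGGGGGC (log2 fold change 2.31 ± 0.111 SE, adjusted p = 2.75e-10). GCLM (ENSG00000023909, hg38 chromosome 1, 93885199 to 93909456, minus strand), the modifier subunit of the enzyme that limits glutathione synthesis, went from 1113 and 1142 to 7141 and 6595 (log2 fold change 2.61 ± 0.0911 SE, adjusted p = 1.52e-11). Neither gene's groups overlapped.

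Each branch of the NRF2 response had called members. In glutathione supply these were GCLM, its catalytic partner GCLC at 1.57, the cystine transporter SLC7A11 at 2.33 (3350.5 and 3335 to 17447 and 16230) and glutathione reductase GSR at 1.98. In the thioredoxin system TXNRD1, thioredoxin reductase, went from 40924 and 44694 to 110703 and 104988 (log2 fold change 1.33, adjusted p = 8.56e-08), with TXN at 1.20, PRDX1 at 1.25 and SRXN1 at 4.28. Among detoxification enzymes AKR1C1, a ketosteroid reductase, went from 1011 and 1310.1 to 8206.5 and 7351 (2.74) and AKR1B10 stood at 4.49. The pentose phosphate enzymes TALDO1 and PGD were at 1.51 and 1.15, and the transporters ABCC2 and ABCC3 at 2.61 and 1.93. PIR, an iron-binding nuclear protein, rose by 2.94 (74.4 and 89.9 to 656 and 615, adjusted p = 9.63e-11). NFE2L2, which encodes NRF2 itself, went from 985 and 803 to 2927 and 2649.9 (1.64, adjusted p = 3.71e-09), and KEAP1, its inhibitor, was at 1.23. HMOX1, heme oxygenase, rose by 0.82 (541 and 589 to 1069.7 and 932) and was not called. The ferritin chains FTL at 1.28 and FTH1 at 2.17 share sequence with processed pseudogenes, so their counts are uncertain.

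The letters TGACNNNGC, the core of an antioxidant response element, were searched on both strands of RefSeq promoters (GRCh38.p14, 250 bases before to 50 after the start). They occurred in 7 of 27 NRF2 list promoters (25.9%) and in 15.2% of 11053 promoters of tested genes. The share was not particular to this list, with 31.8% of lysosome, 30.8% of ATF4, 24% of immediate early and 20.3% of mitosis list promoters. Where the free bases read TCA, they also hold the AP-1 letters TGANTCA, which were in 11.1% of the NRF2 list promoters and 4.89% of all. For each of 3 called members a match is shown in capitals on the gene's strand, and TXNRD1 had a further match that is not printed. A match of these letters is a description and not a binding site.
GCLM (chr1:93909445-93909474, minus strand): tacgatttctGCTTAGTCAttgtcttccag
TXNRD1 (chr12:104215670-104215699, plus strand): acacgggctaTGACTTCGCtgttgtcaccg
PIR (chrX:15493288-15493317, minus strand): gccgcgaagcGCTGAGTCAcggtgaggcta

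GABARAPL1 and several autophagy receptors rose, whereas lysosomal genes mostly did not pass the fold-change limit. Of 50 autophagy genes tested, 10 were called higher and 0 lower (median 0.50). GABARAPL1, an ATG8 protein of the autophagosome membrane, went from 366 and 486 to 5773 and 5454 (log2 fold change 3.71 ± 0.126 SE, adjusted p = 1.27e-11). The mitophagy receptors BNIP3 (1776 and 1909 to 5636 and 5849, 1.64) and BNIP3L (1.44), the cargo receptors SQSTM1 (3.88) and OPTN (1.16) and the scaffold of the starting complex RB1CC1 (1.26) were called higher, while MAP1LC3B, the LC3 gene used most often as a marker, was at 0.54 and not called. Of 67 lysosome and V-ATPase genes, 6 were called higher and 2 lower, with a median of 0.14. GLA, alpha-galactosidase, rose by 1.62 (1241.5 and 1453 to 4366 and 3948), GM2A, the GM2 activator, fell by 1.43 on the log2 scale (524 and 624 to 222 and 204), and LAMP1 was at -0.21 (adjusted p = 0.0563). The CLEAR box TCACGTGA, the motif of the lysosomal regulator TFEB, was found on either strand in 8 of 44 lysosomal promoters and in 1.88% of all 11053.

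Proteasome genes moved less. Of 43 subunits, 29 had an adjusted p below 0.05 and were higher and 6 lower, but only 3 were called, the immunoproteasome subunits PSMB9 (2.38) and PSMB8 (125 and 123 to 389 and 376, 1.62) and the ubiquitin receptor ADRM1 (1117 and 982 to 2888 and 3074, 1.51). Of 26 heat shock chaperones, 5 were called lower and 2 higher (median -0.41). HSPA1A, inducible HSP70, went from 724 and 693 to 275 and 288 (-1.33, adjusted p = 3.67e-08), although it shares most of its sequence with HSPA1B, which was at -0.63. The others called lower were the collagen chaperone SERPINH1 (-1.58), HSPB1 (-1.50), HSPE1 (-1.47) and HSPB8 (-1.44), and those called higher were the co-chaperones DNAJB4 (2.33) and DNAJB6 (1.27).

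ATF4 is the transcription factor that is translated when the kinases of the integrated stress response phosphorylate eIF2α. Of 30 genes of its response, 12 were called higher and 2 lower, with a median of 0.83. ATF3, a stress-induced transcription factor, went from 64.3 and 61.9 normalised counts with siNT1 to 846 and 809.8 with siGGGGGC (log2 fold change 3.71 ± 0.138 SE, adjusted p = 2.43e-11). DDIT4, which restrains mTORC1, went from 37.2 and 30.9 to 329 and 329 (3.28, adjusted p = 4.06e-09). DDIT3, which encodes CHOP, went from 71.3 and 79.6 to 361 and 378 (2.28, adjusted p = 4.03e-09). In all of these genes both siGGGGGC libraries stood far above both siNT1 libraries.

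Some other members of the ATF4 response stayed within the fold-change limit or close to it. The mRNA of ATF4 itself was at 0.39 (5237 and 5676.5 to 7067.5 and 7203), TRIB3, a pseudokinase induced with CHOP, at 0.88 (334 and 316 to 556 and 637), and neither was called. ASNS, asparagine synthetase, had few counts (11.6 and 12 to 21.2 and 26.9), and its log2 fold change of 1.02 lost the call under several alternatives, with an adjusted p of 0.0906 when siNT1 replicate 1 was left out. Of 20 aminoacyl-tRNA synthetases, which ATF4 often induces, 1 was called, WARS1 at 1.15. Among 28 genes of the unfolded protein response of the endoplasmic reticulum, DNAJB9 (1.75), the sensor ERN1 (1.38) and ERO1B (1.14) were called higher and the chaperone HSP90B1 lower (13290 and 13269 to 5212 and 4609, -1.44), while the main chaperone HSPA5 was at -0.28 (11585 and 10656 to 9018 and 9239, adjusted p = 0.0159). The ATF4 element TGATGNAA was found on either strand in 4 of 26 ATF4 list promoters and in 1.85% of all promoters, with the match of ATF3 printed here.
ATF3 (chr1:212565206-212565235, plus strand): aaggtcaggaTGATGGAAggctgtcatatt

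Immediate early genes, which growth factors and stress switch on through MAP kinases, had 15 of 33 members called higher and 2 lower (median 0.82). EGR1, a zinc finger transcription factor, was almost silent with siNT1 (1.55 and 4.01 normalised counts) and at 240.3 and 223 with siGGGGGC (log2 fold change 6.23 ± 0.285 SE, adjusted p = 1.84e-10). FOS, an AP-1 subunit, went from 58.1 and 57.9 to 872 and 895 (log2 fold change 3.93 ± 0.124 SE, adjusted p = 5.31e-12). FOSB (3.35), FOSL1 (867 and 575 to 1857 and 2089, 1.46) and JUNB (2.43) were called higher, while JUN itself was at -0.26 (3123 and 2635 to 2282 and 2536, adjusted p = 0.0301). The MAP kinase phosphatases DUSP4 (2.71) and DUSP6 (2.04) and the ERK inhibitors SPRY2 (1.05) and SPRED1 (1.13), which limit this signalling, were also called higher, and KLF6 (-1.34) and ETV4 (-1.27) lower.

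Inflammatory genes had the highest median of the lists in the plot of 24 lists. Of 29 members tested, 17 were called higher and 1 lower, with a median of 1.32. ICAM1, an adhesion receptor for leukocytes, went from 16.3 and 16 to 314 and 339 normalised counts (log2 fold change 4.33 ± 0.166 SE, adjusted p = 3.25e-11). IL1A, an alarmin cytokine, went from 697 and 829 to 4573 and 4217 (2.52, adjusted p = 1.67e-10), and IL11, a cytokine of the IL-6 family, was at 1.99. The NF-κB subunits NFKB2 (1.68) and RELB (1.49), the inhibitors NFKBIA (1.77) and NFKBIE (1.48) and the adaptors TRAF1 (22.5 and 22.9 to 205 and 209, 3.18) and IRAK2 (2.01) were called higher. IL6 and IL1B were low in abundance and at 1.20 (14.7 and 15.5 to 35.8 and 34.2) and 1.04 (143 and 150.1 to 307 and 296), and IL1B was at 0.996 and not called without siNT1 replicate 1. The member called lower was the chemokine CXCL1 (1104 and 1055 to 446 and 427, -1.31, adjusted p = 1.81e-08), while the related chemokine CXCL8 rose.

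Interferon-induced genes had 10 of 34 members called higher and 2 lower (median 0.44), most at low counts. ISG15, a ubiquitin-like protein, went from 125 and 65.9 to 316 and 396 (1.93 ± 0.213 SE, adjusted p = 1.81e-06), the helicase DDX60 was at 1.43 and IFIT2 at 1.94. IFIT1 and MX1, genes often read as markers of interferon, were at 23.2 and 32.7 and 3.87 and 5.16 with siNT1 and at 72.7 and 59 and 8.94 and 14.5 with siGGGGGC, and both calls were lost without siNT1 replicate 1. The kinase EIF2AK2, which senses double-stranded RNA, was called lower at -1.03.

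p53 is the transcription factor that arrests cells or starts apoptosis after damage. Of 30 of its targets, 7 were called higher and 0 lower, with a median of 0.51. PMAIP1, which encodes the BH3-only protein NOXA, went from 1028 and 1088 to 5497 and 5544 normalised counts (log2 fold change 2.38 ± 0.0838 SE, adjusted p = 1.52e-11). The best known targets moved less, with the cell cycle inhibitor CDKN1A at 0.75 (7204 and 7421 to 11637 and 12996) and MDM2, the ligase that degrades p53, at 0.56 (10553 and 11705 to 16822 and 16019). Both had an adjusted p below 0.05 and neither was called. The stress sensors SESN1 (1.33) and SESN2 (1.18), the receptor EDA2R (1.24), GADD45A (1.04), the cytokine GDF15 (37.2 and 43.5 to 131 and 145, 1.76) and TNFRSF10B, the TRAIL receptor DR5 (3278.5 and 3156.5 to 6939 and 7229, 1.14), made up the other called targets.

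In the BCL2 family, which decides on mitochondrial release in apoptosis, 7 of 20 genes were called higher and 2 lower. Those called higher were pro-apoptotic or mitophagy members, PMAIP1, BIK (3.26), BMF (3.00), BCL2L11 (1.22), the effector BAK1 (1.17), BNIP3 and BNIP3L, and 4 were left when only genes with mean counts over 50 were tested. BIK (5.42 and 5.73 to 48.1 and 61.1) and BMF (7.75 and 8.02 to 67.1 and 61.1) were low in all libraries. Of the survival members, BCL2L2 was called lower (918 and 962 to 351 and 296, -1.54), BCL2L1 fell by 0.60 on the log2 scale (adjusted p = 9.47e-05) and MCL1 rose by 0.71 (9053 and 8959.6 to 14326 and 15242, adjusted p = 7.17e-06). The other member called lower was BOK (-1.20). Among 23 death receptor and caspase genes, the inhibitor of apoptosis BIRC3 rose most (415 and 451 to 2523 and 2476, 2.53), with TNFRSF10B, CASP9 (1.38) and FADD (1.12) also called higher and TNFRSF25 (-2.04) and TRADD (-1.30) lower. The initiator caspase CASP8 was at 0.30.

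Values of the genes in the main pathways are plotted for all 10 libraries, so that the time course and siGGCAGU can be seen beside the late response.

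**Figure D3:**
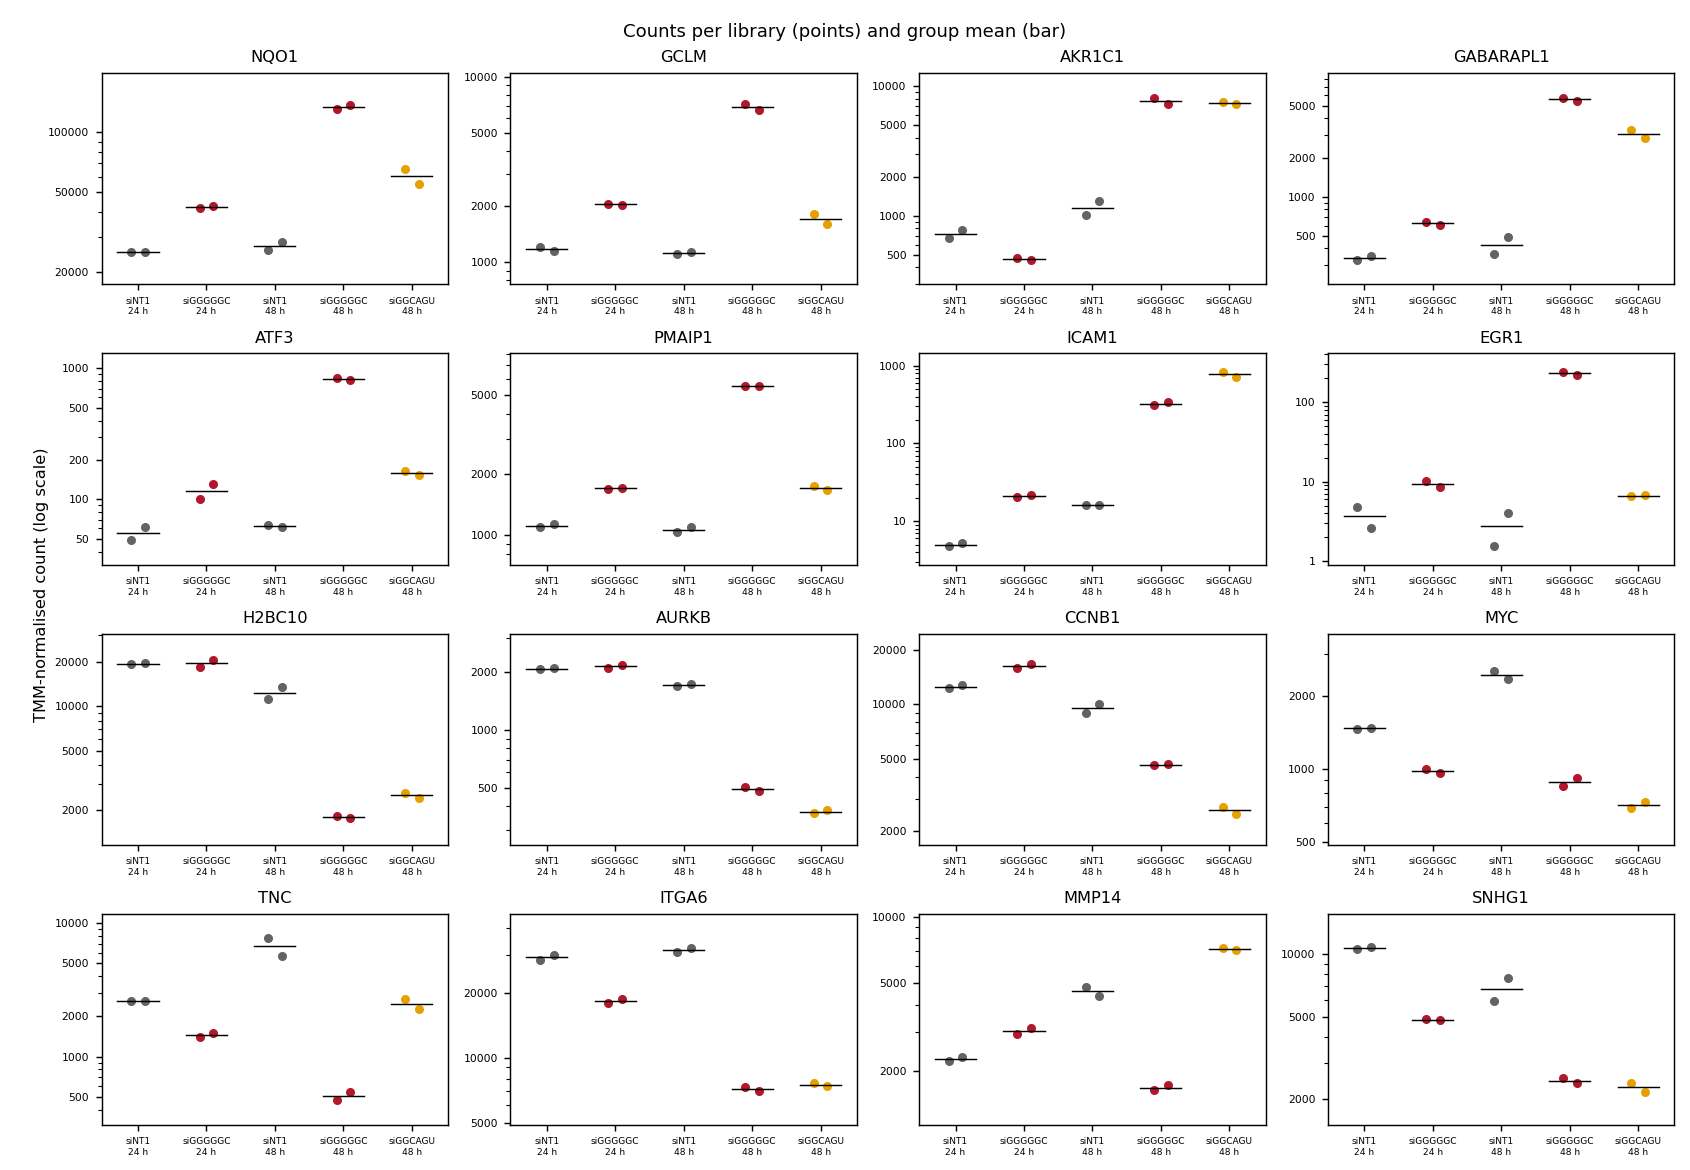
TMM-normalised counts (vertical axes, log scale) of 16 genes in each of the 10 libraries (points), with bars at the group means and groups ordered as siNT1 and siGGGGGC at 24 h, then siNT1, siGGGGGC and siGGCAGU at 48 h. In every panel both siGGGGGC libraries at 48 h lie on one side of both siNT1 libraries at 48 h, and for AKR1C1, H2BC10, AURKB, CCNB1 and MMP14 the 24 h libraries do not show the same direction.

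Many cell cycle genes fell, most by less than the fold-change limit. Of 69 genes of mitosis, 41 had an adjusted p below 0.05 and were lower and 7 higher, and 18 were called lower and 0 higher (median -0.48). FOXM1, the transcription factor of the mitotic programme, went from 524 and 513 to 116 and 141 normalised counts (log2 fold change -2.01 ± 0.134 SE, adjusted p = 9.15e-09). The kinetochore motor CENPE went from 3017 and 2922 to 838 and 662 (-1.99, adjusted p = 1.56e-09), and the kinase AURKB of the chromosomal passenger complex from 1685 and 1728 to 502 and 482 (-1.80, adjusted p = 2.68e-10). Some central genes scarcely moved, with CDK1 at -0.12 (4338 and 5020 to 4317 and 4316, adjusted p = 0.409) and TOP2A at -0.10 (adjusted p = 0.355). CCNB1, the cyclin of mitotic entry, was near the limit at -1.03 (8993 and 10031 to 4613 and 4718) and at -0.95 without siNT1 replicate 2. The proliferation marker MKI67 was at -1.11, but its siNT1 replicates differed (3632 and 2075), and without siNT1 replicate 1 it was at -0.66 and not called.

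Of 52 DNA replication genes, 34 had an adjusted p below 0.05 and were lower and 5 higher, yet only ORC2, a subunit of the origin recognition complex, was called (1521 and 1652 to 777 and 643, -1.16). The helicase subunit MCM2 was at -0.50 and the sliding clamp PCNA at -0.13 (adjusted p = 0.288). Homologous recombination and Fanconi genes had a median of -0.56, with 25 of 36 lower at an adjusted p below 0.05 and FANCG (-1.17) and FANCD2 (-1.13) called. In nucleotide synthesis 6 of 30 genes were called lower, led by the pyrophosphatase DCTPP1 (257 and 213 to 31.3 and 49.7, -2.52). Purine synthesis was represented by IMPDH1 (576 and 506 to 101 and 125, -2.25), IMPDH2 (-2.05) and PFAS (1564 and 1416 to 348 and 362, -2.07), while RRM2 and TYMS of deoxynucleotide synthesis were at -0.06 and -0.26 with adjusted p-values of 0.625 and 0.0868.

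Among regulators of G1, MYC went from 2560.5 and 2359.6 to 853 and 923 (-1.47, adjusted p = 2.83e-09) and E2F4 from 1216 and 1231 to 484 and 577 (-1.20), E2F1 was at -0.96 and CCND1, cyclin D1, at -0.31. CCND3 (1.12), CCNE2 (1.07) and the inhibitor CDKN1C (1.61) were called higher, and CCND2 (-2.76) and E2F8 (-1.10) lower. E2F sites, searched as TTTGGCGC and TTTCCCGC on both strands, were in 17 of 45 DNA replication promoters (37.8%) and in 3.62% of all 11053, in 2.59% of the promoters of genes called higher and in 2.83% of those called lower. The match in the promoter of PCNA is shown as an example of a gene with the motif that was not called.
PCNA (chr20:5126662-5126691, minus strand): agcgtcagggGCGGGAAAaggcgtgcgttt

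Clustered histone genes, whose messengers end without a poly(A) tail and are made in S phase, had the lowest median at 48 h of the pathway lists. Of 52 tested, 21 were called lower and 2 higher, with a median of -0.90. H2BC10 went from 11178 and 13490 to 1825 and 1764.5 normalised counts (log2 fold change -2.78 ± 0.109 SE, adjusted p = 3.77e-11). H2BC9 (11308 and 13062 to 2081 and 1889, -2.62) and H2BC7 (3056 and 3879 to 601 and 579, -2.56) showed falls of like size, and H4C1 (-2.28), H1-3 (-1.36) and H3C7 (-1.25) belong to the other histone classes. The 2 genes called higher were H2AC20 (1.34) and H4C9 (1.04). Histone genes are near-identical copies, so reads may have been split between them or left out. H2AX, a histone variant gene outside this list with polyadenylated transcripts as well, rose from 728 and 516 to 2072 and 2337 (1.83, adjusted p = 3.28e-08).

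Of 63 extracellular matrix genes tested, 17 were called lower, 6 higher and 40 were not called (median -0.67). Tenascin C, TNC, a matrix glycoprotein of wounds and tumours, went from 7682 and 5697 to 472 and 542 normalised counts (log2 fold change -3.72 ± 0.143 SE, adjusted p = 3.25e-11). Fibronectin, FN1, went from 20024 and 15152 to 1267.5 and 1402 (-3.72, adjusted p = 1.52e-11), and the siNT1 replicates of both genes differed from each other more than the siGGGGGC replicates did, without overlap of the groups. The proteoglycan VCAN (-2.62), the protease ADAMTS1 (9621 and 8666 to 2739.6 and 3108, -1.64), the collagens COL4A5 (-1.36) and COL5A2 (-1.21), fibrillin FBN1 (-1.20) and the crosslinking enzymes LOX (-1.05) and PLOD1 (-1.37) were called lower. Among those called higher only P4HA1, a collagen prolyl hydroxylase (1.24), and AGRN (1.08) had a mean normalised count above 100.

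Of 15 integrin genes, which encode receptors for this matrix, 4 were called lower, 2 higher and 9 were not called. ITGA6, a laminin receptor chain, went from 30736 and 32300 to 7318 and 7019 (log2 fold change -2.14 ± 0.0921 SE, adjusted p = 1.03e-10). ITGA2 (-1.84), ITGA3 (3972 and 3319 to 1357 and 1485, -1.36) and ITGA5 (-1.17) were called lower, ITGAV (1.05) and ITGB2 (1.01) higher, and the common beta chain ITGB1 was at -0.19 (17493 and 17539 to 15353 and 15407, adjusted p = 0.109). In the hyaluronan list, the synthase HAS2 (-4.55) and the hyaluronidase HYAL2 (378 and 381 to 93.9 and 111, -1.89) were called lower, ITIH2 (1.61, at about 10 normalised counts) higher, and the receptor CD44 was at -0.48. In the plasminogen and matrix protease list 6 of 26 were called lower, among them the membrane protease MMP14 (4806 and 4385 to 1642 and 1729, -1.45, adjusted p = 3.25e-09). The shedding proteases ADAM17 (879 and 960.1 to 3159 and 3068, 1.76) and ADAM9 (1.07) and the inhibitor SERPINE2 (1.10) were called higher.

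Several markers of the line were also lower. KRT8 went from 6582 and 5679 to 1986 and 2443 (-1.47, adjusted p = 4.72e-07), KRT18 was at -1.38, KRT7 at -1.23 and VIM at -0.89 (37296 and 39331 to 20925 and 20409). PAX8 went from 674 and 654 to 118 and 87, a log2 fold change of -2.70 (adjusted p = 8.62e-10), and WT1 was at -1.29. Their part in the other falls was not tested. CDH1 had 0.77 and 1.72 normalised counts with siNT1 and 7.82 and 6.21 with siGGGGGC and did not pass the count filter.

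Growth factor genes split, with 7 of 26 called higher and 8 lower. Their median was 0.28 and turned to -0.79 when only genes with mean counts over 50 were tested. VEGFA, the angiogenic ligand, went from 135 and 152 to 815 and 776 (2.47 ± 0.117 SE, adjusted p = 2.68e-10), and the ligands PDGFA (1.94) and HBEGF (1.81) were also called higher. FGF2 went from 2297 and 2247 to 412 and 424 (-2.44, adjusted p = 9.74e-11), and FGF5 (-2.13), PDGFC (-1.08) and the receptors AXL, ERBB2 (-1.60) and MET (-1.06) were called lower. In the TGF-beta list the receptor TGFBR2 (3433 and 2537 to 1047 and 1042, -1.51) and the activin chain INHBA (3323 and 3151 to 789 and 740.4, -2.08) were called lower. The inhibitors of differentiation went opposite ways, ID1 from 1386 and 1418 to 345 and 397 (-1.92) and ID2 from 31.8 and 32.7 to 186 and 192 (2.54). Of 34 YAP-TEAD targets 4 were called higher, with CCN2 (3082 and 2071 to 12676 and 11558, 2.24) the largest, and 6 lower, while CCN1 was at 0.08 (adjusted p = 0.553) and the factor TEAD2 itself was called lower (207 and 205 to 29.1 and 38.3, -2.60).

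Actin genes split within one motor. The heavy chain of non-muscle myosin, MYH9, was called lower (5903 and 4008 to 1426 and 1573, -1.72), while its regulatory light chains MYL12A (4501 and 5667 to 19578 and 19211, 1.93) and MYL12B (1.40) were called higher. Among small GTPases, RHOB went from 230.0 and 261 to 816 and 774 (1.69) and RHOC, a target gene of the study, from 3566 and 3962 to 1034 and 1155 (-1.78). In all, 4 of 43 actin cytoskeleton genes were called higher and 3 lower, the others being CNN2 (1.17) and ZYX (-1.01).

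Of 73 ribosome biogenesis genes, 42 had an adjusted p below 0.05 and were lower and 6 higher, and 11 were called lower and 1, WDR74 at 1.51, higher (median -0.38). EMG1, a ribosomal RNA methyltransferase, went from 753 and 780.2 to 173 and 133 (-2.33 ± 0.119 SE, adjusted p = 5.64e-10), and NOL6 from 1808.5 and 1806 to 549 and 534 (-1.74). PES1, one of the study's target genes, belongs to this list, in which the nucleolar protein NCL was at -1.57 and the RNA polymerase I factor UBTF at -1.32. Of 79 cytosolic ribosomal protein genes 1 was called higher and 2 lower, with a median of 0.06 that went to -0.02 with library sizes taken without structural RNA genes, and these genes share reads with many pseudogenes. Among 31 RNA polymerase subunits the 5 called lower were POLR2E, POLR2K, POLR1G (462 and 509.9 to 131 and 135, -1.87), POLR1A (-1.18) and POLR3G (-1.03), which between them belong to polymerases I, II and III, and the largest subunit POLR2A was at 0.64.

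Host genes of small nucleolar RNAs had a median of -0.81, with 9 of 27 called lower and 1, SNHG11 at 1.13, higher. SNHG1 went from 5980 and 7661.5 to 2524 and 2387 (-1.47, adjusted p = 2.8e-08), SNHG8 from 2622 and 3122 to 981 and 889.5 (-1.62), TAF1D was at -1.71 and SNHG4 at -1.97. The median at 24 h was -0.75, the lowest of the pathway lists at that time. Among long noncoding RNAs with large rises were LUCAT1 (22.5 and 24.1 to 1109.9 and 979, 5.47, adjusted p = 3.79e-12) and NEAT1, the scaffold of paraspeckles (5733 and 3995 to 23301 and 23945, 2.28). MALAT1 was at -0.24 (adjusted p = 0.401), with siNT1 replicates at 135523 and 71354.

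The enzymes that add hypusine to EIF5A were not called, with DHPS at 0.06 (340.0 and 335 to 335 and 369) and DOHH at 0.60. SRM, spermidine synthase, fell from 235 and 176 to 51.4 and 52.8 (-1.97), ODC1 was at 0.04 (adjusted p = 0.721), and SMOX (1.86), OAZ2 (1.24) and AZIN2 (1.05) were called higher. In base excision repair 6 of 21 genes were called lower, among them APEX1, its paralogue APEX2 (196 and 159 to 60.4 and 66.3, -1.48) and the glycosylases OGG1 (-1.33) and SMUG1 (-1.17), and MPG (1.80) and POLB (1.01) were called higher. In the microRNA pathway DROSHA, the nuclear enzyme that cuts primary microRNAs, went from 592.5 and 458 to 136 and 151 (-1.86, adjusted p = 2.69e-08), DICER1 was at -0.06 (adjusted p = 0.61) and AGO2 at 0.97. AGO3 and TNRC6C were just beyond the limit at 1.00 and 1.04 and fell below it under several alternatives, AGO3 to 0.88 with no count filter. Of 39 SR and hnRNP splicing factors, the hnRNPs HNRNPA0 (1296 and 1004 to 316 and 366, -1.75), HNRNPDL (-1.57), HNRNPH3 (-1.08) and HNRNPUL2 (-1.09) were called lower and PTBP2, a splicing repressor, higher (1.43).

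Calls were few in the mitochondrial lists. The 76 nuclear-encoded respiratory chain genes had a median of 0.10 and 1 call, NDUFAB1 (2627 and 2328 to 6450.5 and 6690.5, 1.41), and 78 mitochondrial ribosomal protein genes a median of 0.14 with 2 called higher and 2 lower. The 15 genes of the mitochondrial genome are listed at 0 in every library and were not tested. The 30 cholesterol synthesis genes had a median of -0.01, with MSMO1 (4103 and 4558 to 9812 and 9863, 1.18) and HSD17B7 (1.29) called higher and SREBF1 (-1.42) and MVK (-1.12) among the 3 called lower. Of 18 fatty acid synthesis genes, the desaturases SCD (8734 and 7439 to 3665 and 3590.1, -1.16) and FADS2 (-1.22) and ACACA (-1.07) were called lower, ACACA not without siNT1 replicate 1 (-0.86). Of 25 glycolysis genes, 5 were called higher and 2 lower. The glucose transporters SLC2A3 (930.2 and 974 to 2709 and 2289.5, 1.39) and SLC2A1 (1.04), PDK1 (1.27), PFKP (1.07) and ALDOA (1.10) were called higher, and hexokinase 2, HK2, was among those called lower (-1.11, and -0.74 and not called without siNT1 replicate 1).

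To ask which changes belong to the second day, the siGGGGGC effect at 48 h was set against that at 24 h, each relative to siNT1 of its own time, by the interaction term of the same edgeR fit. The difference was called higher in 817 genes (4.83% of the genes tested) and lower in 1076 (6.36%). A called difference in the same direction was present in 669 (37.8%) of the 1768 genes higher at 48 h and in 794 (42.5%) of the 1868 lower, sets that use the same 48 h libraries. One library bears on this comparison, since siNT1 replicate 1 at 24 h had 33365 genes with a count where the others had 25238 to 28703. Without it the difference was called higher in 611 genes and lower in 987.

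CXCL8, a neutrophil chemokine, had the largest positive difference among abundant genes. It was at 2009.6 and 2088 with siNT1 and 1301 and 1339.9 with siGGGGGC at 24 h, below its control, and at 1722.5 and 2179 and 27674 and 25529 at 48 h, so that its log2 fold changes differed by 4.40 ± 0.198 SE (adjusted p = 3.28e-09). AKR1C1 turned in the same way, from -0.65 at 24 h to 2.74 at 48 h (difference 3.39, adjusted p = 1.14e-08), and ARRDC3 went from -0.09 to 3.62 (difference 3.72). The histone genes H2BC9, H2BC7 and H2BC10 had differences of -2.90, -2.81 and -2.79, with log2 fold changes of 0.28, 0.26 and 0.01 at 24 h. For TNC the control changed as well and was at 2629 and 2592 at 24 h and 7682 and 5697 at 48 h while siGGGGGC was at 1406 and 1500 and 472 and 542 (difference -2.88, adjusted p = 9.63e-08).

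Clustered histones had a median of 0.41 at 24 h and -0.90 at 48 h, and 38 of 52 had a called negative difference. Mitosis genes went from 0.32 to -0.48 with 27 of 69 called negative, DNA replication from 0.24 to -0.40 with 9 of 52, and extracellular matrix from 0.09 to -0.67 with 19 of 63 negative and 1 positive. All 4 medians lay above 0 at 24 h and below it at 48 h. The NRF2 response was already at 0.39 at 24 h and 21 of 39 members had a called positive difference, against 11 of 30 for ATF4, 14 of 29 for inflammatory genes and 12 of 33 for immediate early genes. The snoRNA host genes, at -0.75 and -0.81, had 0 called differences either way.

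**Figure D4:**
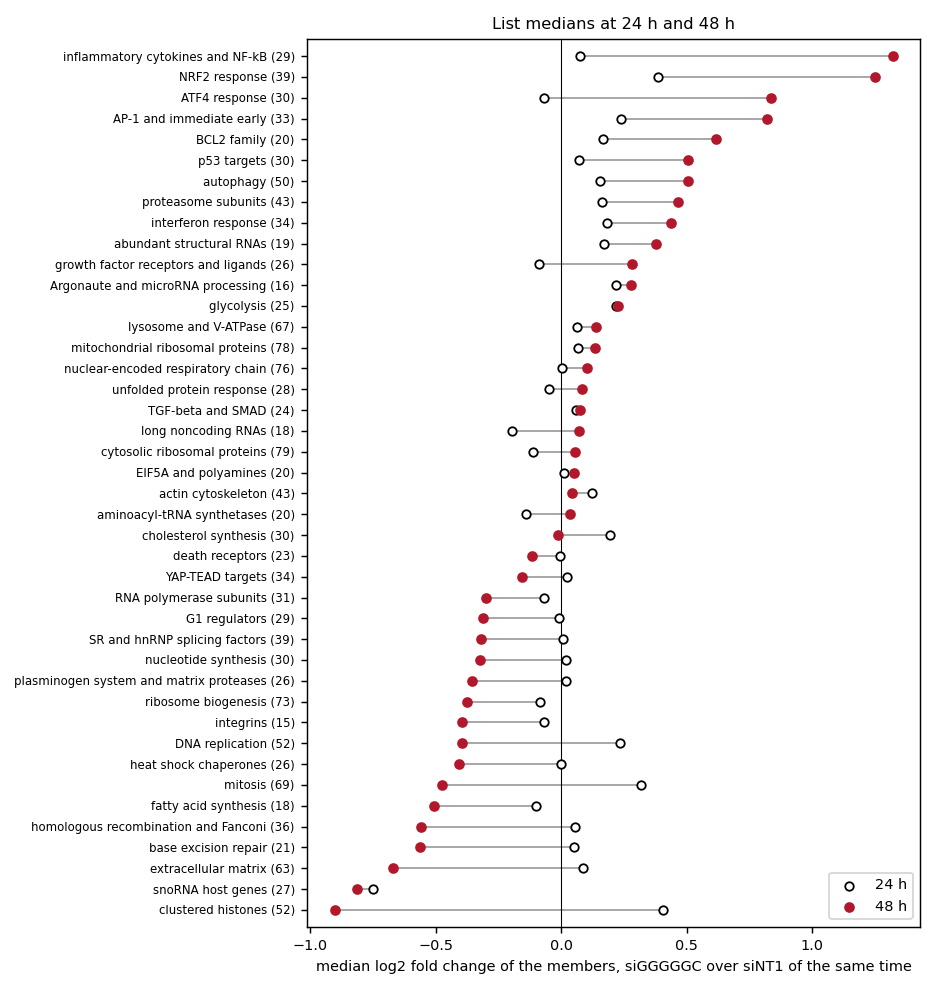
Median log2 fold change of siGGGGGC over siNT1 of the same time (horizontal axis) for the gene lists with at least 15 tested members (vertical axis, number in brackets), with open circles at 24 h and red circles at 48 h joined by a line. Clustered histones move from 0.41 to -0.90 and inflammatory genes from 0.07 to 1.32, while snoRNA host genes stay near -0.75 and -0.81.

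Set directly against siGGCAGU at the same dose and time, siGGGGGC left 1710 genes called higher (10.1%) and 2171 called lower (12.8%). This comparison uses the same siGGGGGC libraries as the one with siNT1, so no overlap between them is given. Many cell cycle genes were higher with siGGGGGC. Of 69 mitosis genes 44 were called higher than with siGGCAGU and 0 lower (median difference 1.12), and of 52 DNA replication genes 25 and 1. MCM2 was at 1453 and 1697 with siGGGGGC and 365 and 315 with siGGCAGU (difference 2.22, adjusted p = 3.05e-10), and CDC25A, the phosphatase that releases cyclin-dependent kinases, at 2119 and 2052 and 177 and 138 (difference 3.75). CDC25A was at 1678 and 1760.4 with siNT1, close to siGGGGGC.

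Many matrix, inflammatory and interferon genes were lower with siGGGGGC than with siGGCAGU. Of 63 extracellular matrix genes 30 were called lower and 1 higher (median difference -0.93), of 29 inflammatory genes 11 lower and 4 higher, and of 34 interferon genes 14 and 2. ICAM1 reached 314 and 339 with siGGGGGC and 836 and 716 with siGGCAGU (difference -1.24, adjusted p = 2.23e-07), and IFIT1 72.7 and 59 against 494 and 363 (difference -2.69). Of 33 immediate early genes, 11 were called higher with siGGGGGC than with siGGCAGU and 1 lower. EGR1 was at 240.3 and 223 with siGGGGGC against 6.54 and 6.69 with siGGCAGU (difference 5.10, adjusted p = 6.98e-10), FOS at 872 and 895 against 58.9 and 64 (3.83) and FOSL1 at 1857 and 2089 against 251 and 225 (3.06). In the NRF2 response 6 of 39 genes were called higher with siGGGGGC and 2 lower. NQO1 (130802 and 136777 against 65180 and 55373) and GCLM (7141 and 6595 against 1814 and 1618.5) differed by 1.15 and 2.00 on the log2 scale, whereas TXNRD1 was at 0.02 (SE 0.108, adjusted p = 0.913) and AKR1C1 at 0.06 (SE 0.111).

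Genes with the seed match were called lower more often than genes without it. Of 12397 protein-coding genes with an annotated 3′ UTR, 31.6% had at least 1 GCCCCC there, against 44.4% of the 1286 called lower and 27.8% of the 1273 called higher. The share called lower was 8.43% of 8479 genes with 0 copies, 12% of 2216 with 1 copy, 16% of 916 with 2 copies and 20% of 786 with 3 or more, and the median log2 fold changes were 0.07, -0.10, -0.17 and -0.27. The share called higher ran from 10.8% at 0 copies to 8.27% at 3 or more. Genes with more copies also had longer 3′ UTRs, with median lengths of 1287, 1946, 2248 and 2934 bases, and GCCCCC in the coding sequence gave a similar gradient of 7.96%, 10.8%, 14.6% and 17.8% called lower. The part of length and of base composition was not tested. Genes are not replicates, so these shares carry no test.

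**Figure D5:**
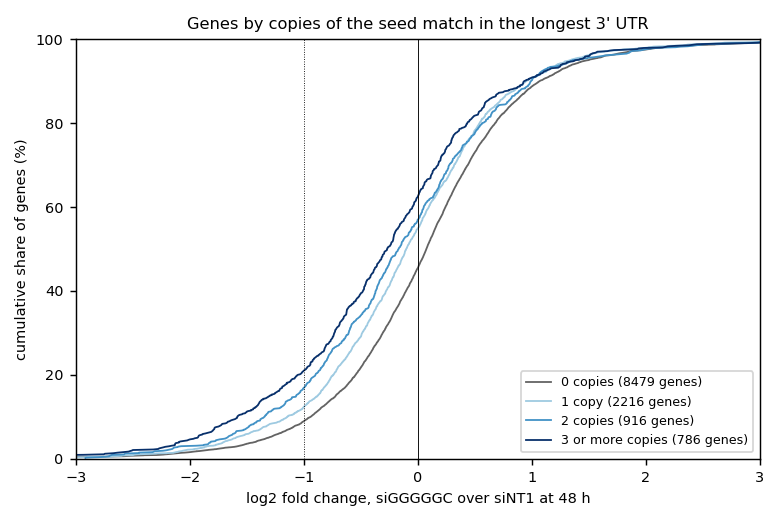
Cumulative share of protein-coding genes (vertical axis, %) by log2 fold change of siGGGGGC over siNT1 at 48 h (horizontal axis), for genes with 0, 1, 2 and 3 or more copies of GCCCCC in the longest annotated 3′ UTR, with a dotted line at -1. The curves for more copies lie further to the left over most of the range below 0, with medians of 0.07, -0.10, -0.17 and -0.27, and come together above 1.

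The copies were spread unevenly over the pathways described above. The study had picked its 10 target genes among genes with a copy, so that all 10 had one was fixed by that choice. A copy was present in 26 of 63 extracellular matrix genes, 20 of 50 autophagy genes and 17 of 33 immediate early genes. The autophagy and immediate early lists had more members called higher than lower. Among clustered histones 4 of 52 had a copy, as had 3 of 52 DNA replication genes and 8 of 69 mitosis genes. Among named genes with several copies, ITGA3 with 5 (-1.36) and MYH9 with 4 (-1.72) were called lower. So were the target genes EIF5A and HMGA1 with 5 (-3.48 and -2.135) and TGM2 and CENPB with 4 (-4.39 and -2.27), which the study had picked for their fall at 24 h. CDKN1A with 4 (0.75), AGO2 with 7 (0.97) and ERN1 with 4 (1.38) were higher, and FASN with 5 was at -0.71. These named examples lay on both sides of 0 and do not give the balance over all genes. Of all genes with 3 or more copies, 20% were called lower and 8.27% higher.

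By class of gene, the share called lower was 10.4% of 12430 protein-coding genes, 15.1% of 2267 long noncoding RNA genes and 23.6% of 127 small nucleolar RNA genes, and the shares called higher were 10.3%, 12.7% and 6.3%. Protein-coding genes that span at most 5 kb were called lower in 17.8% of cases and those over 5 to 20 kb in 12.1%. The shares were 7.9% over 20 to 50 kb, 8.91% over 50 to 100 kb and 10.2% over 100 kb. Zinc finger genes named ZNF on chromosome 19, had 52 of 235 called higher and 10 lower with a median of 0.53, and ZNF genes on other chromosomes 34 of 238 higher and 19 lower with a median of 0.17.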

How the data were processed

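The counts used here are whole reads per gene as the authors deposited them, 1 file per library with 58395 genes and 0 entries that name no gene. According to the study's methods, total RNA from duplicate wells was depleted of ribosomal RNA, sequenced as read pairs, trimmed, aligned with TopHat or STAR and counted with HTSeq on Ensembl genes. The submitters' processing notes name TopHat, Bowtie2, HTSeq and DESeq2 and the build hg38, with versions not given in the sources used here. The 4 tables of the authors' own comparisons hold mean normalised counts, fold changes and p-values and were not used, among them 1 of the 48 h comparison made from other libraries. Whether the counting used strand is not given in the sources used here, so overlapping genes cannot be told apart.

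All 10 libraries entered 1 fit in edgeR 4.0.16 (R 4.3.3), with TMM library sizes, the low-count filter of filterByExpr, the 5 groups as the only term and 5 residual degrees of freedom (biological coefficient of variation 0.0837). The contrasts were siGGGGGC against siNT1 at 48 h, its interaction with time and siGGGGGC against siGGCAGU. Normalised counts are counts per TMM library size scaled to the mean of 25982985. A gene was called at an adjusted p below 0.05 and a log2 fold change beyond 1. Depth ran from 19781445 to 42428986 counts per library, and a gene at few counts has a wider error than the fold change alone shows. The fit was tested on simulated counts. These were drawn with the same dispersion for all genes and groups, so they cannot show how the fit behaves where the spread is unequal. Replicates came from wells of 1 experiment, so p-values measure the spread between wells. Replicate numbers were not used to pair the samples in this fit.

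The genes named were the 10 largest rises and falls with a mean normalised count of at least 1000, the landmark genes and the 3 largest called members (mean of at least 100) of each list, the study's target and control genes, the 5 largest differences either way in the other contrasts and members of small counts. These lists, and the question itself, were chosen with earlier results of these data known. GENCODE 44 held 98.9% of the identifiers and gave symbols, spans and 3′ UTRs on hg38. Promoters (250 bases before to 50 after the start) and microRNAs came from RefSeq (GRCh38.p14). Alternatives were the filter, the scaling, the fit, DESeq2 1.42.0, stricter thresholds, the replicate block and leaving out each library.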

Additional observations from a re-analysis of the deposited data

Results flagged for a closer look

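The siGGGGGC effect differed between 48 h and 24 h by the interaction term of the edgeR fit in 817 genes with a positive difference and 1076 with a negative one, which is 4.83% and 6.36% of the genes tested. Among abundant genes the largest positive differences were those of CXCL8 (4.40 on the log2 scale), ARRDC3 (3.72), AKR1C1 (3.39), OSGIN1 (3.34) and GABARAPL1 (2.83), and the largest negative ones those of H2BC9 (-2.90), TNC (-2.88), H2BC7 (-2.81), H2BC10 (-2.79) and TGM2 (-2.73). These genes were chosen for the size of their difference. The groups had 2 libraries each, too few to test for a single library that stands apart within a group.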

How the results depend on the processing

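Under most alternatives the 6 counts of called genes stayed within 1.5 times of those given above. The exceptions were 3. Testing only genes whose mean count reached 50 gave 904 genes higher and 1157 lower at 48 h, 506 with a positive difference between the times, and 975 higher and 1313 lower than with siGGCAGU, because fewer genes were tested. Requiring the fold change itself to exceed a log2 of 1 (glmTreat) gave 781 and 768 at 48 h, 138 and 188 for the difference between the times and 732 and 1055 against siGGCAGU, a stricter test by construction. An adjusted p below 0.01 left 537 positive differences between the times. Leaving out each library in turn gave 1637 to 1759 genes higher and 1721 to 1857 lower at 48 h, 611 to 806 and 949 to 1170 for the difference between the times, and 1602 to 1689 and 2021 to 2179 against siGGCAGU.

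With a replicate block, the counts were 1755 higher and 1846 lower at 48 h, 789 and 1047 for the difference between the times and 1690 and 2159 against siGGCAGU. The deviations of same-numbered samples correlated at -0.252 between the 48 h groups and at -0.123, 0.0397 and 0.0589 otherwise. Same-numbered samples of the 48 h groups thus did not deviate in the same direction. With 2 libraries per group this cannot decide whether the wells were paired. With the numbers of the 48 h groups crossed, an alternative chosen after seeing the data, 1727 genes were higher and 1880 lower.

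All 158 called genes among the 235 named kept their direction under each of the 16 alternatives that tested them, and 122 also kept the call. Of the 158, the limit of a mean count of 50 left 154 tested and the fits of the 48 h groups alone 157. Apart from glmTreat, 13 lost the call under at least 1 alternative, CCNB1, MKI67, BCL2L11, ASNS, IL1B, IFIT1, MX1, ACACA, MRPS6, SLC2A1, HK2, TNRC6C and AGO3. Other called genes given in the text lie outside the 235 and were followed only as list counts, some of which dropped. With library sizes taken without structural RNA genes, integrins called higher went from 2 to 0. Without the low-count filter, glycolysis genes called higher went from 5 to 2. Those of the plasminogen and matrix protease list went from 3 to 1. Without the low-count filter the median over all genes moved from -0.01 to -0.13. The median kept its sign in 33 of 48 lists under every alternative. The 15 others had medians of at most 0.28 in size. With 2 libraries per group, genes at few counts, such as MX1, are limited by depth.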
